A study of Homo sapiens with 16 samples.

Results

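NT5E (also called CD73) and the genes that handle extracellular adenosine were followed through the stepwise acquisition of gemcitabine resistance in T24 cells. The set held 10 of the 39007 gene rows of the deposited expression table, chosen by name: the ectonucleotidases NT5E, ENTPD1 and ENPP1, the adenosine-removing enzymes ADA and ADK, the ADA-binding surface protein DPP4, and the receptors ADORA1, ADORA2A, ADORA2B and ADORA3. T24 is an established human bladder cancer cell line, and gemcitabine is a deoxycytidine analogue used against bladder cancer. The samples were 16 RNA-seq libraries, 4 at each of 4 phases. Every library title carries the letters NT, which the sources used here do not explain. Whether gemcitabine was present at harvest is not stated there. The titles also hold S numbers, which repeat between phases and are not explained either. The parental phase (P0) was T24 before any selection. The early (P3), intermediate (P7) and late (P15) phases were the survivors of successive rounds of gemcitabine exposure that had regrown as colonies. The sequenced phases belonged to GRC1, which was 1 of several resistant lines that the study derived from T24, and all phases were grown in the same medium. Nothing in the labels says that the 4 libraries of a phase came from separate cultures, so p-values measure only the spread between these libraries, which may be technical.

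Cells release ATP, and enzymes on the cell surface take it apart in sequence. ENTPD1 (CD39) removes phosphates from ATP and ADP, ENPP1 cleaves ATP directly to AMP, and NT5E turns AMP into adenosine. Adenosine then acts on G protein-coupled receptors, of which ADORA1 and ADORA3 lower cAMP and ADORA2A and ADORA2B raise it, or it is removed by deamination to inosine through ADA or by phosphorylation inside the cell through ADK. In tumours the pathway is best known for dampening the immune response.

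Values were log2(CPM + 1), where CPM is a gene's count per 1 M counts of its library. The estimated depth of the libraries ran from 33.8 M to 50.0 M counts. Of the 10 genes, 8 averaged over 1 CPM across the libraries and entered the test of 13249 genes, while ADORA2A and ADORA3 did not. A gene is said to have passed the test, or to have risen or fallen, where limma gave a Benjamini-Hochberg (BH) adjusted p below 0.05, and to have changed at least 2-fold where its log2 fold change was also 1 or more in size. The epithelial keratin KRT18 was high in all phases, at 591 to 665 CPM in P15, whereas KRT7 ranged from 903 to 988 CPM in P0 and was at most 12.3 CPM in P15. Between the same phases KRT8 averaged 593 and 70.3 CPM, KRT19 85.1 and 0.012, and the epithelial marker EPCAM 5.41 and 0.811. The keratin KRT17 went the other way, from 0.177 to 15.4 CPM. KRT5 and the epithelial cadherin CDH1 averaged at most 0.05 CPM in both. In bulk RNA, fewer cells that express a gene and less of its RNA per cell cannot be told apart.

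Promoter sequences are shown for the gene that rose at every step (NT5E), for the enzyme that rose most at the last step (ADA) and for the most abundant receptor (ADORA2B). Of the 10 genes, 9 had an entry among the RefSeq promoters of GRCh38.p14, and the search covered the 250 bases before each start, on both strands. These were 14 windows, 5 of them for ENTPD1, 2 for ADK and 1 for each other gene. The capitals mark the GC box bound by SP1, GGGCGG or its reverse complement CCGCCC.
NT5E chr6:85450011-85450039, plus strand, the stretch between its outermost GC boxes: CCGCCCcggccttgacccgggccCCGCCC
ADA chr20:44651746-44651901, minus strand, the stretch outside annotated exons: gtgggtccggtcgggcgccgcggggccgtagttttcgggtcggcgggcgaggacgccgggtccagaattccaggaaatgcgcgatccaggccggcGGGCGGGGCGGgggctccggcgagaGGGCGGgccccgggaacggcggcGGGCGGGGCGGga
ADORA2B chr17:15944880-15945129, plus strand: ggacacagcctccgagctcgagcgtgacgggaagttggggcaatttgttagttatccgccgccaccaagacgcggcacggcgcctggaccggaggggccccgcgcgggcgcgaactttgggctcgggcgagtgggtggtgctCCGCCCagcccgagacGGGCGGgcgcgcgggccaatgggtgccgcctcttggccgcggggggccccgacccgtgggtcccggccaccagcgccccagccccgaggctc
The GC box stood in 8 of the 14 windows, belonging to 7 of the 9 genes, and 42.6% of 35114 promoters of the same length held it. ADA had 5 matches, some of which overlapped, while NT5E and ADORA2B had 2 each, so that genes with opposite courses shared these letters. The first 5 bases of the cAMP response element, TGACG, were found in 6 of the 14 windows, those of NT5E and ADORA2B among them, and in 21.2% of all promoters. The full element TGACGTCA, held by 1.6% of promoters, and the AP-1 letters TGANTCA, held by 6.6%, were in none of the 14. The core of the hypoxia response element, ACGTG, was in the windows of DPP4 and ENPP1 and in 18.5% of promoters. These matches describe letters only and are not evidence of binding.

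NT5E (chromosome 6 of GRCh38, 85449584 to 85495791, 9 exons in its canonical transcript) makes the enzyme that forms adenosine. The 4 libraries of P0 read 5.56, 5.54, 5.66 and 5.57 on the log2 scale. In P3 they read 7.37, 7.23, 7.36 and 7.33, in P7 7.57, 7.61, 7.56 and 7.54, and in P15 8.16, 8.18, 8.20 and 8.24. No library of a phase reached the range of another, and the phases stood in the order of selection. The mean level went from 46.9 CPM in P0 to 159 in P3, 189 in P7 and 292 in P15, 6.22-fold higher than at the start. The first step was larger than the last by 1.12 on the log2 scale (standard error 0.05, limma, BH-adjusted p = 2.3e-16). All 3 steps upward passed the test, which held for 124 of the 13249 tested genes, or 0.936%. The study picked NT5E for a resistance signature from these same libraries, so its course here is a description and not independent evidence. By quantitative PCR, the study also reported NT5E as higher in P15 than in P0, both in the cells and in mouse xenograft tumours.

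**Figure D1:**
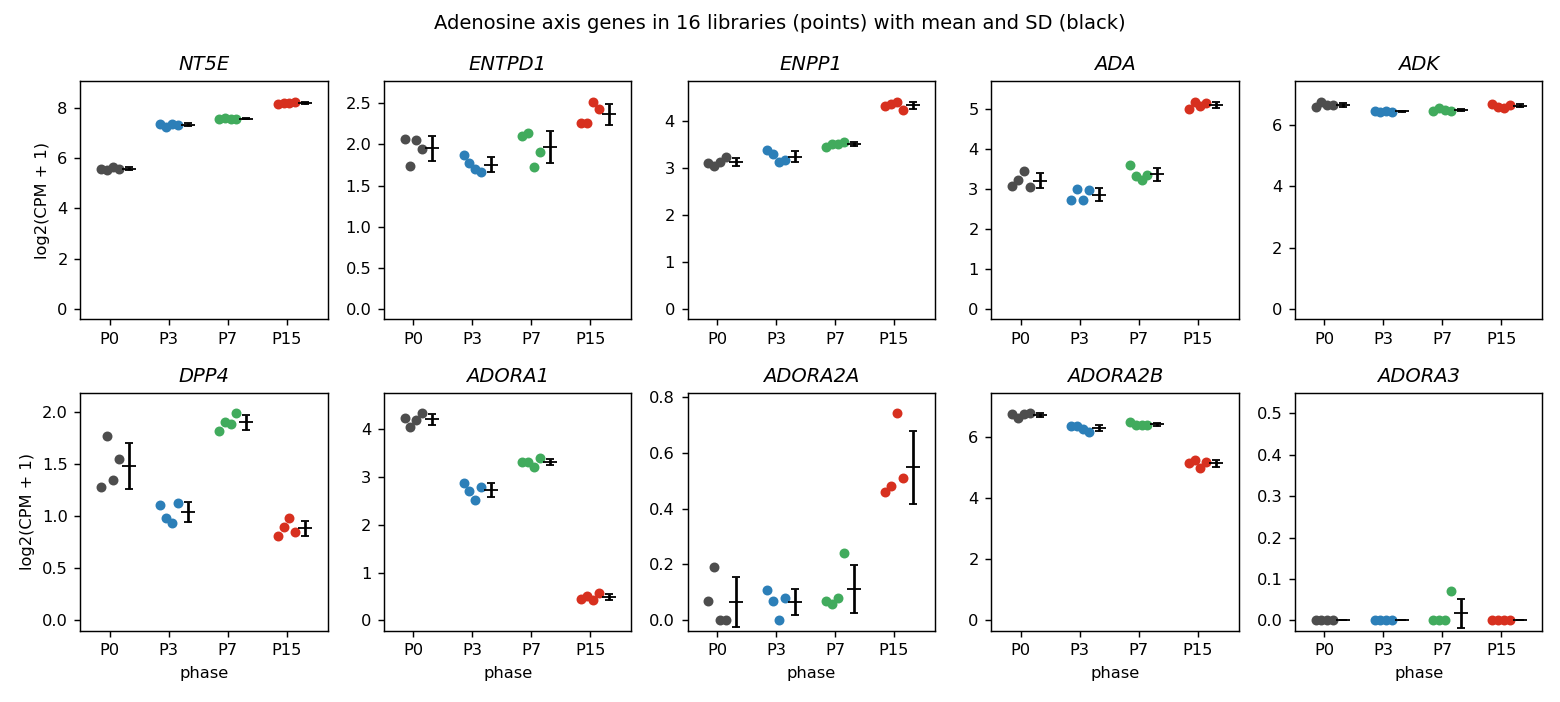
Log2(CPM + 1) of the 10 genes (vertical axes, each with its own scale) in the 4 phases (horizontal axes). Points are libraries, and the black marks give the mean and SD of 4 libraries. NT5E is higher at each phase, from 5.58 on average in P0 to 8.20 in P15, while ADORA1 and ADORA2B are lowest in P15 and ADORA3 is at 0 in 15 of 16 libraries.

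The enzymes upstream of NT5E had their largest step at P15. ENPP1 (chromosome 6, 131808016 to 131895155), which makes AMP from ATP, read 3.10, 3.03, 3.12 and 3.22 in P0 and 3.37, 3.30, 3.11 and 3.16 in P3. Those ranges overlapped, and the difference of 0.12 did not pass (standard error 0.07, limma, BH-adjusted p = 0.13), although under quantile normalization it was 0.21 with an adjusted p of 0.0082. ENPP1 then read 3.44, 3.51, 3.50 and 3.55 in P7 and 4.32, 4.36, 4.40 and 4.22 in P15. Each of these groups lay above all libraries of the phases before it. It rose by 0.26 at the P7 step (standard error 0.07, limma, BH-adjusted p = 0.0018) and by 0.83 at the P15 step (standard error 0.07, limma, BH-adjusted p = 3.9e-11).

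ENTPD1 (chromosome 10, 95711779 to 95877266), which starts the breakdown of ATP, stayed low throughout. Its libraries read 2.07, 1.74, 2.06 and 1.95 in P0, 1.87, 1.78, 1.70 and 1.67 in P3, and 2.10, 2.14, 1.72 and 1.91 in P7. These phases overlapped, and neither neighbouring pair was told apart, with differences of -0.20 (standard error 0.10, limma, BH-adjusted p = 0.083) and 0.21 (standard error 0.10, limma, BH-adjusted p = 0.076). In P15 it read 2.26, 2.26, 2.52 and 2.43, above every earlier library. ENTPD1 rose by 0.40 at that step (standard error 0.10, limma, BH-adjusted p = 0.00082), a call that quantile normalization removed (0.21, limma, BH-adjusted p = 0.063), and by 0.21 with a pseudocount of 5. The antisense gene ENTPD1-AS1 shares 5623 of the 12493 bases of the canonical ENTPD1 transcript and averaged 9.32 CPM. ENTPD1-AS1 fell by 0.36 at P7 (limma, BH-adjusted p = 0.00031). At the P15 step it rose by 0.54 (limma, BH-adjusted p = 4.3e-07), from 7.49 to 11.4 CPM, a larger step than that of ENTPD1. The strand setting of the counting is not given in the sources used here, so reads of the pair may not have been separated.

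ADA (chromosome 20, 44584896 to 44652252), the enzyme that deaminates adenosine, read 3.08, 3.24, 3.46 and 3.05 in P0. It read 2.73, 3.01, 2.72 and 2.99 in P3, below every P0 library, and 3.60, 3.32, 3.22 and 3.36 in P7, within and above the P0 range. In P15 it stood far above all earlier libraries, at 5.01, 5.19, 5.09 and 5.15. ADA fell by 0.34 at the first step (standard error 0.09, limma, BH-adjusted p = 0.0022), rose by 0.51 at the second (standard error 0.09, limma, BH-adjusted p = 5.3e-05) and rose by 1.74 at the last (standard error 0.09, limma, BH-adjusted p = 8.4e-15). P0 and P7 were not told apart (limma, BH-adjusted p = 0.12). The last step took ADA from 9.42 to 33.6 CPM, 3.56-fold, in contrast to NT5E, whose larger step was the first.

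ADK (chromosome 10, 74151202 to 74709963), which returns adenosine to AMP inside the cell, had the narrowest range of phase means of the 8. It read 6.58, 6.76, 6.65 and 6.65 in P0, 6.47, 6.41, 6.46 and 6.43 in P3, 6.45, 6.55, 6.49 and 6.46 in P7, and 6.68, 6.60, 6.57 and 6.65 in P15. P3 lay below P0 without overlap, P3 and P7 overlapped, and P15 overlapped with P0. The step down at P3 was -0.22 (standard error 0.04, limma, BH-adjusted p = 2e-05) and the step up at P15 was 0.14 (standard error 0.04, limma, BH-adjusted p = 0.0017). P15 differed from P0 by -0.04 (standard error 0.04, limma, BH-adjusted p = 0.39), and by 0.01 with the sign turned under quantile normalization.

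DPP4 (chromosome 2, 161992245 to 162074394), a surface peptidase that also anchors ADA outside the cell, averaged between 0.849 and 2.74 CPM by phase and followed a saw-tooth course. Its libraries read 1.28, 1.77, 1.35 and 1.55 in P0, 1.11, 0.98, 0.94 and 1.13 in P3, 1.82, 1.91, 1.89 and 1.99 in P7, and 0.81, 0.90, 0.98 and 0.85 in P15. P7 was above all other libraries, and P3 and P15 overlapped. DPP4 fell by 0.45 at P3 (standard error 0.10, limma, BH-adjusted p = 0.00039), rose by 0.86 at P7 (standard error 0.10, limma, BH-adjusted p = 1.1e-07) and fell by 1.02 at P15 (standard error 0.10, limma, BH-adjusted p = 1.2e-09). The last value sat at the 2-fold line and was -0.99 without P7 replicate 4 or without P15 replicate 1. With a pseudocount of 5 it was -0.40, and with a pseudocount of 0.1 the step up at P7 was 1.30, since fold changes of low genes depend on that constant.

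Among the receptors, ADORA1 (chromosome 1, 203090654 to 203167405), which couples to inhibitory G proteins, fell most. It read 4.23, 4.04, 4.18 and 4.32 in P0, 2.86, 2.70, 2.52 and 2.79 in P3, 3.31, 3.31, 3.21 and 3.38 in P7, and 0.44, 0.51, 0.42 and 0.57 in P15. No phases overlapped, and P7 lay between P3 and P0. ADORA1 fell by 1.48 at P3 (standard error 0.08, limma, BH-adjusted p = 1.1e-13), rose by 0.58 at P7 (standard error 0.08, limma, BH-adjusted p = 1.8e-06) and fell by 2.82 at P15 (standard error 0.08, limma, BH-adjusted p = 3.5e-20). On the CPM scale it went from 17.3 in P0 to 0.401 in P15, 43.2-fold lower, a wider gap than the log2(CPM + 1) difference of -3.71 shows (-2.05 with a pseudocount of 5).

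ADORA2B (chromosome 17, 15945130 to 15975746), the low-affinity receptor that raises cAMP, took the same turns with smaller steps. It read 6.77, 6.64, 6.78 and 6.79 in P0, 6.37, 6.37, 6.28 and 6.17 in P3, 6.50, 6.40, 6.41 and 6.41 in P7, and 5.15, 5.27, 5.01 and 5.19 in P15. P0 was highest and P15 lowest without overlap, while the highest P3 libraries lay just under the lowest P7 library. It fell by 0.45 at P3 (standard error 0.05, limma, BH-adjusted p = 4.8e-08) and by 1.27 at P15 (standard error 0.05, limma, BH-adjusted p = 2.6e-17). The step between them, 0.13, was the smallest that passed in this gene (standard error 0.05, limma, BH-adjusted p = 0.031) and did not pass without P3 replicate 3 (BH-adjusted p = 0.065), P3 replicate 4 (0.15) or P7 replicate 1 (0.10). A course of fall, rise and fall that passed at each step was seen in ADORA1, ADORA2B and DPP4 and in 978 of the 13249 tested genes, or 7.38%.

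ADORA2A (chromosome 22, 24417879 to 24442357), the high-affinity receptor that raises cAMP and is best known from lymphocytes, was near the limit of detection. It read 0.07, 0.19, 0.00 and 0.00 in P0, 0.11, 0.07, 0.00 and 0.08 in P3, 0.07, 0.06, 0.08 and 0.24 in P7, and 0.46, 0.48, 0.74 and 0.51 in P15. All P15 libraries were above all others, and the 3 earlier phases overlapped. The difference between P15 and P0 was 0.48 (exact permutation test, two-sided p = 0.029, the smallest that 4 against 4 allows). The estimated counts behind it were 7 over the P0 libraries and 75 over the P15 libraries, a ratio of 9.46 after correction for depth, with a 95% counting interval of 4.37 to 24.3. Its antisense neighbour ADORA2A-AS1, which shares 149 of the 2529 bases of its canonical transcript, went from 0.06 to 0.48 on the log2 scale between the same phases, and the counting may not have separated the pair. The readthrough gene SPECC1L-ADORA2A, which shares 2380 of those bases on the same strand, averaged 0.002 CPM. How reads in bases shared between genes were counted is not given in the sources used here. The listed ADORA2A level may therefore be too low, which was not tested.

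ADORA3 (chromosome 1, 111499429 to 111503633), the other inhibitory receptor, was listed at 0 in 15 of 16 libraries. P7 replicate 4 read 0.07, an estimated 2 counts. A count of 0 allows up to 0.060 to 0.089 CPM, depending on the depth of the library, for counting error only. Its neighbour TMIGD3, which shares 629 of the 1757 bases of its canonical transcript, averaged 0.015 CPM. At this depth no ADORA3 expression was detectable outside that library, though reads in the shared bases may not have been counted.

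At P3, 2 of the 8 tested genes changed at least 2-fold, NT5E upward and ADORA1 downward, beside 4.46% of all tested genes (1.95% upward and 2.51% downward). At P7 against P3 none did, beside 1.83% of all tested genes, although 6 passed limma at a BH-adjusted p below 0.05 (58.2% of all tested genes did) and 7 had an unadjusted p below 0.05. All 6 of those that passed were higher in P7, as were 30.3% of all tested genes. At P15 against P7, 4 changed at least 2-fold, ADA upward and ADORA1, ADORA2B and DPP4 downward, beside 25.5% of all tested genes (13.4% upward and 12.1% downward). Between P15 and P0, 5 did, with NT5E, ADA and ENPP1 higher and ADORA1 and ADORA2B lower, beside 23.6% of all tested genes (12.1% upward and 11.4% downward). The last 2 comparisons share the P15 libraries. With 8 genes tested, the shares of the set are coarse, and nothing particular to the set is read from them. Over the 8 genes, 17 of the 24 pairs of phases that neighbour each other in level were told apart. The share over all tested genes was not taken for this count, so nothing particular to the set is read from it either.

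**Figure D2:**
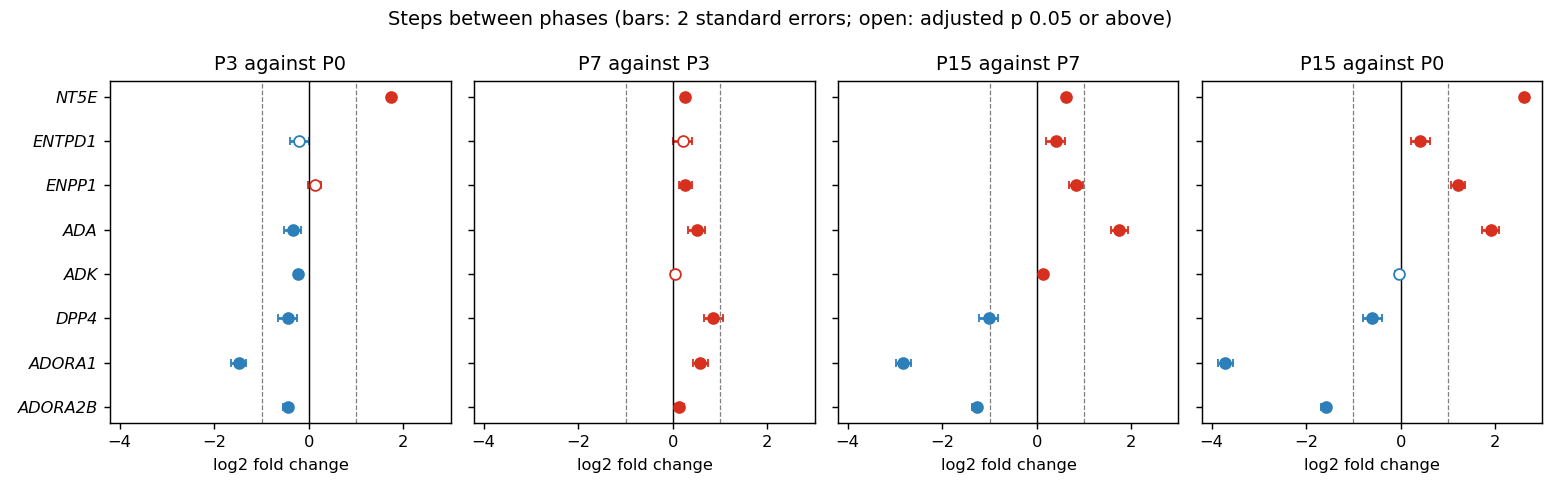
Log2 fold change (horizontal axes) of the 8 tested genes (vertical axis) at each of the 3 steps and between P15 and P0. Bars span 2 standard errors to each side, filled points passed limma at a BH-adjusted p below 0.05, open points did not, red is higher and blue lower, and dashed lines mark a 2-fold change. NT5E moves most at the first step (1.74), ADA and the receptors at the last (ADA 1.74, ADORA1 -2.82).

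Levels of different genes were compared as CPM per kilobase of the Ensembl canonical transcript. On that scale NT5E stood at 13.2 ± 0.50 in P0 and 82.0 ± 2.0 in P15 (SD, n = 4), and ADK at 50.3 ± 2.6 and 49.1 ± 1.7 (SD, n = 4). NT5E was thus below ADK in P0 and above it in P7 and P15. In P3 they stood at 44.7 ± 2.0 and 43.2 ± 0.83 (SD, n = 4), but at 35.1 and 18.5 with the summed length of all annotated exons, so where NT5E passes ADK depends on the length used. ADA reached 22.4 ± 1.2 CPM per kilobase in P15 (SD, n = 4), from 5.55 ± 0.83 in P0. ENPP1 at 2.56 ± 0.14 and ENTPD1 at 0.334 ± 0.037 (SD, n = 4) remained the lowest of the enzymes in P15. With all annotated exons in place of the canonical transcript, the P15 values per kilobase came to 64.4 for NT5E, 21.0 for ADK and 2.76 for ADA, so comparisons that involve ADA depend most on this choice.

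**Figure D3:**
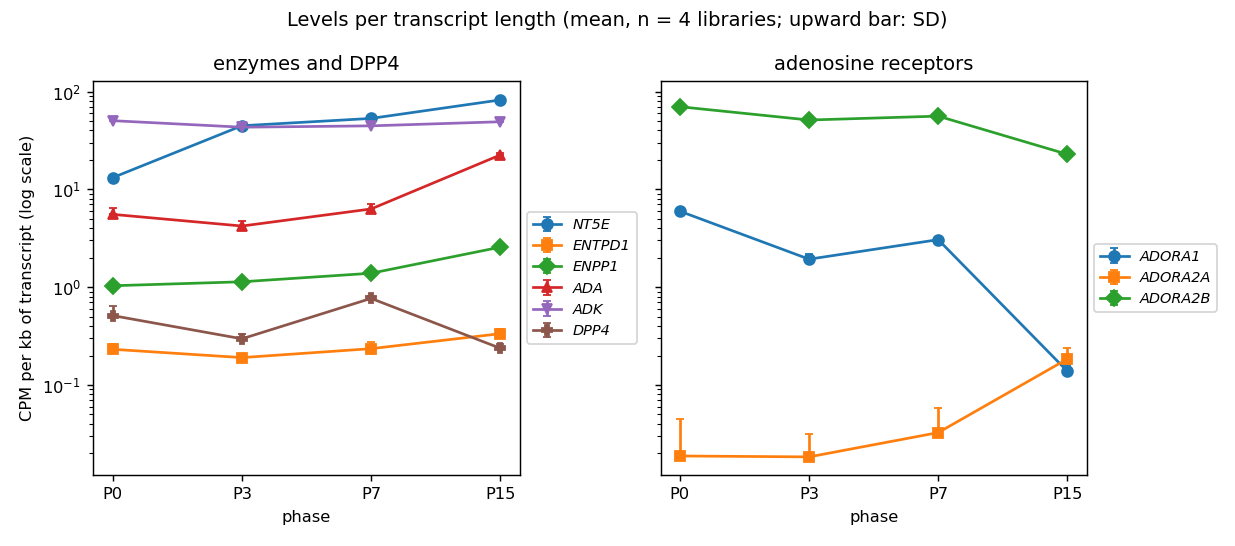
CPM per kilobase of canonical transcript (vertical axis, log scale) by phase for the enzymes and DPP4 (left) and the receptors (right). Points are means of 4 libraries and the upward bars 1 SD, and ADORA3 is left out because it is at 0 in nearly all libraries. NT5E is below ADK in P0 and above it in P15, and the P3 order depends on the length used. ADORA1 in P15 comes down to the listed level of ADORA2A.

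ADORA2B made up nearly all of the counted receptor transcripts in every phase. Reads of ADORA2A and ADORA3 in bases shared with other genes may be missing from the counts. The shares are therefore those of the listed values only. Per kilobase, its share of the 4 receptors was 92.1 ± 0.32% in P0 and 96.3 ± 0.49% in P3. It was 94.8 ± 0.36% in P7 and 98.6 ± 0.30% in P15 (SD, n = 4). The share of ADORA1 was 7.87 ± 0.34% in P0 and 0.596 ± 0.076% in P15 (SD, n = 4), with no overlap. ADORA2A went from a range of 0.00 to 0.079% in P0 to a range of 0.624 to 1.27% in P15, so that in P15 it took a share of the same order as ADORA1. The share of ADORA2B thus rose while its own level fell, from 69.9 ± 3.4 to 22.8 ± 1.7 CPM per kilobase (SD, n = 4).

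The ratio of NT5E to each enzyme that removes adenosine was taken within each library. NT5E over ADA was 5.73 ± 0.67 in P0 and 25.6 ± 4.2 in P3, then 20.3 ± 2.4 in P7 before it came down to 8.72 ± 0.42 in P15 (CPM ratio, SD, n = 4). The 4 libraries of P15 ran from 8.14 to 9.13, above the P0 range of 4.95 to 6.39 and below all libraries of P3 and P7, which overlapped with each other. NT5E over ADK rose without a turn, from 0.469 ± 0.033 in P0 to 1.85 ± 0.051, 2.13 ± 0.040 and 2.99 ± 0.13 (SD, n = 4), with no overlap between phases. NT5E over ENTPD1 was 16.4 ± 2.1 in P0 and between 65.9 and 70.5 on average in the later phases, whose ranges overlapped. The 2 routes of removal also shifted against each other, with ADA over ADK at 0.0828 ± 0.012 in P0 and 0.344 ± 0.026 in P15 (SD, n = 4). These ratios are given as descriptions with no test.

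**Figure D4:**
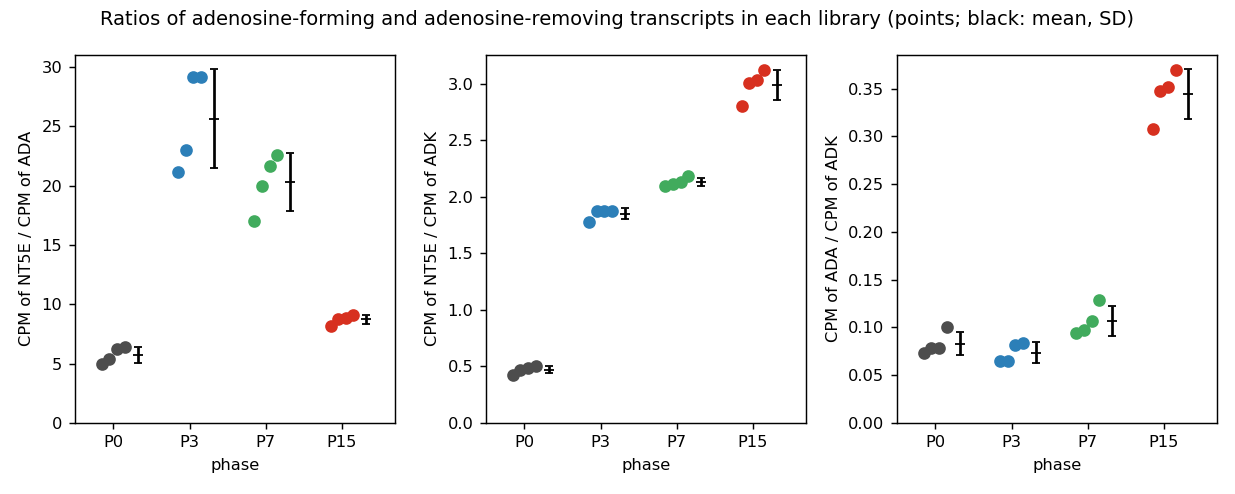
Ratio of CPM values within each library (vertical axes, from 0) by phase: NT5E over ADA, NT5E over ADK and ADA over ADK. Points are libraries and the black marks the mean and SD. NT5E over ADA is highest in P3 (25.6) and comes down to 8.72 in P15, while NT5E over ADK goes up at each phase to 2.99.

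Over the 16 libraries, ADORA1 and ADORA2B had a Pearson correlation of 0.99, ADA and ENPP1 of 0.94, and NT5E and ADORA1 of -0.83. The libraries share 4 phases, so these values mostly restate the phase means and carry no p. The tested genes most like NT5E were ANTXR2 (0.995), STC1 (0.992), KCTD15 (0.989), STEAP1 (0.988) and FGF2 (0.987). STC1, a secreted glycoprotein that the study also picked for its signature, went from 12.7 to 584 CPM between P0 and P15, and ANTXR2, an anthrax toxin receptor, from 29.9 to 74.6 CPM. The genes most like ADORA1 were TNS3 (0.997), MXRA7 and UACA, and those most like ADORA2B were RFLNB (0.994), VSIR (0.993) and FBLIM1. VSIR, an immune checkpoint molecule, went from 19.3 CPM in P0 to 1.53 in P15. ADA was closest to HHLA3, EPOR and RAP1GAP, ENPP1 to TNNT1, HINT3 and CCNYL2, ENTPD1 to FOXJ3, ZNF702P and HKR1, ADK to RPS13, C2orf81 and RBBP7, and DPP4 to AMTN, SLC16A6 and IGFN1.

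Several of the 10 genes are known from leukocytes, endothelium or fibroblasts, so markers of those cells were read in the same libraries. Leukocyte markers summed to 6.22 to 8.59 CPM in P0 and 0.0851 to 0.460 CPM in P15, with 1 of 7 above 1 CPM in P0, CD14, and none in P15. The markers PTPRC and CD3E were at or near 0 in all phases, and reached at most 0.057 CPM in P15. ADA, ENTPD1 and ADORA2A were highest in P15. Other leukocyte markers reached more there, ITGAM up to 0.248 and CD68 up to 0.117 CPM, beside an average of 0.466 CPM for ADORA2A. Endothelial markers summed to 6.05 to 7.95 CPM in P0, with CDH5 at 5.69 and PECAM1 at 0.936 CPM on average, and to 0.515 to 1.09 CPM in P15. Fibroblast markers summed to 7.26 to 8.45 CPM in P0 and 46.6 to 51.7 CPM in P15, with 2 of 8 above 1 CPM in P0 and 3 of 8 in P15. The higher sum came from 2 collagens, COL1A1 at 22.8 to 26.1 and COL3A1 at 20.1 to 22.8 CPM in P15, while PDGFRB averaged 2.77 CPM in P0 and 2.38 in P15, DCN was at 0 in both, and COL1A2, PDGFRA, LUM and THY1 averaged at most 0.247 CPM in both. Epithelial markers summed to 2070 to 2150 CPM in P0 and 686 to 765 CPM in P15, where KRT18 alone averaged 633 CPM. Urothelial markers summed to 125 to 132 CPM in P0 and 22.1 to 25.7 CPM in P15, with 3 of 8 above 1 CPM in P0 and 4 of 8 in P15. Between these phases GATA3 averaged 36.2 and 1.43 CPM, FOXA1 28.5 and 3.26, and PPARG 62.3 and 16.8. UPK1A went the other way, from 0.075 to 1.98 CPM. The part of any of these cell types in the courses of NT5E, ADA and the receptors was not tested.

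The other genes of the pathway came from 9 lists of 122 genes, of which 81 entered the test. Of these, 6 changed at least 2-fold at P3, 5 at P7 against P3, 35 at P15 against P7 and 29 between P15 and P0, or 7.4%, 6.2%, 43.2% and 35.8% of the 81, to be read against the shares of all tested genes given above. Before NT5E acts, ATP must leave the cell. SLC17A9, the carrier that loads ATP into vesicles, read 101 CPM in P0 and was listed at 0 in all P15 libraries, at least 1360-fold lower if 3 counts per library are taken as the limit. CALHM2, a channel subunit, fell from 22.6 to 0.430 CPM (log2 fold change -4.05, limma, BH-adjusted p = 5e-24), and GJA1, the connexin of hemichannels, rose from 11.3 to 94.5 CPM (2.96, limma, BH-adjusted p = 1e-20). The list had 1 gene higher and 3 lower of 9 by the 2-fold rule between P15 and P0, or 44.4% beside 23.6% of all tested genes. Its median was 0.30 beside 0.04 over all tested genes.

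Of the 6 other ectonucleotidases and phosphatases tested, 2 changed at least 2-fold between P15 and P0, both upward. That was 33.3% of the list, beside 23.6% of all tested genes (12.1% upward). Without the fold threshold, 3 of the 6 rose and 3 fell, so the list had no common direction. ENTPD2, which like ENTPD1 degrades ATP, rose by 1.75 (limma, BH-adjusted p = 1.4e-13) to 5.44 CPM, and ENPP4 by 1.06 (limma, BH-adjusted p = 3.1e-15). Inside the cell, the mitochondrial nucleotidase NT5M rose from 0.397 to 11.8 CPM, and the cytosolic NT5C2 fell from 58.1 to 19.5 CPM. Of 15 enzymes of adenosine and AMP, the adenylate kinase AK5 fell by 4.00 and the AMP deaminase AMPD3 by 2.82 (limma, BH-adjusted p = 1.4e-25 and 2.6e-24). No other of the list changed 2-fold between P15 and P0, so that 13.3% of it did, beside 23.6% of all tested genes. AK4, another adenylate kinase, rose by 1.15 at P3 and fell by 2.05 at P15 against P7. Of the 4 tested transporters that carry adenosine across membranes, SLC29A2 rose from 6.24 to 48.5 CPM and SLC29A4 from 0.623 to 11.1 CPM. The other genes stayed under the 2-fold line, with SLC29A1 higher by 0.76 and SLC29A3 lower by 0.30 (limma, BH-adjusted p = 2.3e-16 and 0.0064). The list median of 1.77, beside 0.04 over all tested genes, thus lay between unlike genes. By the 2-fold rule 50.0% of the list changed, beside 23.6% of all tested genes.

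Downstream of the receptors, 20 G proteins, adenylate cyclases and cAMP effectors were tested. Between P15 and P0, 3 of the 20 were higher and 2 lower at least 2-fold, beside 12.1% and 11.4% of all tested genes. The list thus changed about as often as all tested genes, of which 23.6% did. Its median was -0.16, beside 0.04 over all tested genes. RAPGEF4, an exchange factor switched on by cAMP, went from 0.381 to 56.2 CPM, and the protein kinase A subunits PRKACB and PRKAR1B fell by 1.65 and 2.02 (limma, BH-adjusted p = 1.4e-20 and 1.3e-19). Of 9 cAMP phosphodiesterases, PDE10A fell from 32.3 to 1.58 CPM and PDE8A by 1.04, while PDE4A rose by 1.24. The list of transcripts known to respond to cAMP had 6 of 7 genes higher at least 2-fold and none lower between P15 and P0, beside 12.1% and 11.4% of all tested genes, with a median of 1.82 beside 0.04. PER1 rose from 10.9 to 220.0 CPM and NR4A2 from 1.53 to 20.9 CPM, and DUSP1 was highest in P3 (302 CPM). The list was chosen with earlier results of these data known, so its count and median are a description and not evidence about cAMP. These genes also respond to growth factor and stress signals, and their link to the receptors was not tested. Of 6 tested P2 receptors, which sense the nucleotides themselves, P2RY2 and P2RY6 fell by 2.79 and 3.22 and P2RX5 rose by 1.34. Fold changes of the low genes depended on the pseudocount: with 5 in place of 1, P2RY6 fell by 1.56, NT5M rose by 1.64 and ENTPD2 rose by 0.82, under the 2-fold line.

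**Figure D5:**
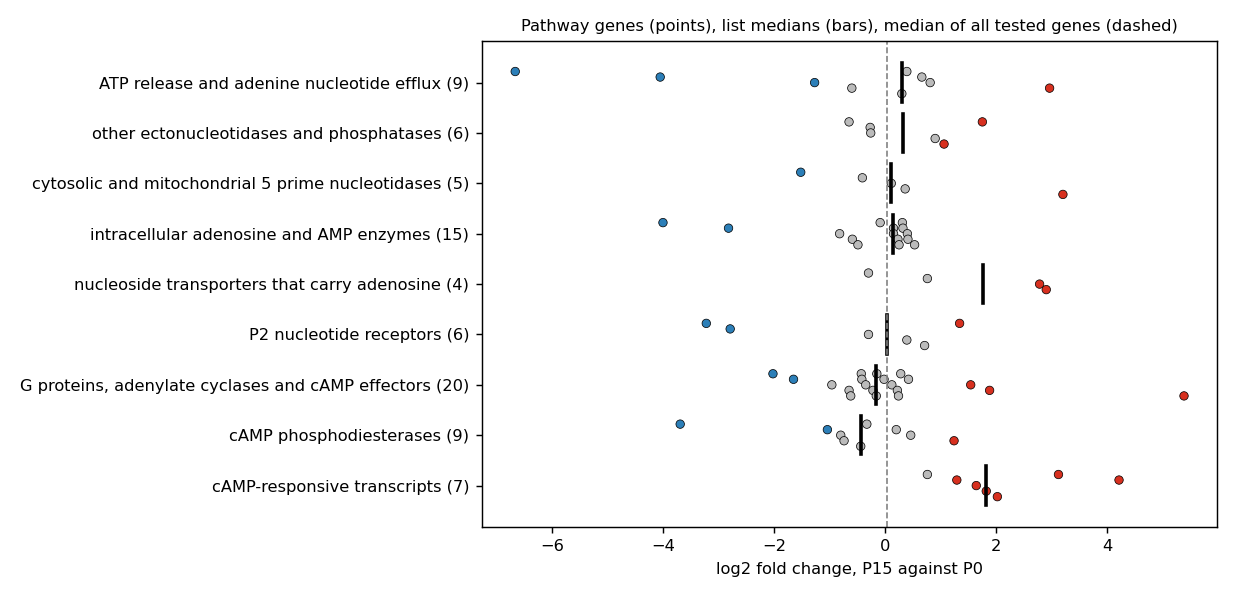
Log2 fold change between P15 and P0 (horizontal axis) of the 81 tested pathway genes, 1 row for each list with its number of tested genes. Red and blue points changed at least 2-fold upward or downward, grey points did not, black bars are list medians, and the dashed line is the median of all tested genes (0.04). The median stands at 1.82 for the cAMP-responsive transcripts. It stands at 1.77 for the adenosine transporters, of which 2 of 4 changed at least 2-fold. The lists were chosen with earlier results of these data known, so the medians are descriptions only.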

How the data were processed

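Libraries were made from total RNA of T24 phases P0, P3, P7 and P15 (n = 4 each) with oligo(dT) reverse transcription, and sequenced as paired ends by Illumina. The authors aligned the reads with STAR 2.6.1a to GRCh38, per the labels, and deposited 1 table of log2 CPM values, found here to be log2(CPM + 1) at 2 decimals. Reads were counted with featureCounts, whose strand setting is not given in the sources used here. The study also describes quantile normalization and median centring, but the deposited values were never below 0 and returned to a full CPM total in each library. Depth was estimated from the spacing of low values. The 4 libraries of a phase were told apart by the replicate number in their description.

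From the deposited log2 values, limma 3.58.1 (R 4.3.3) was fitted with 1 coefficient per phase and a variance trend to the 13249 genes averaging over 1 CPM, with Benjamini-Hochberg adjustment. The script was tested on simulated data. ADORA2A was compared by an exact permutation test. Positions, transcript lengths and shared exons came from GENCODE 44 on GRCh38, and promoters from RefSeq. The text names the 10 genes, up to 2 genes that rose and 2 that fell most per pathway list and comparison, and the genes most correlated with each. The 10 genes, the lists and this rule were chosen with earlier results of these data known. Alternatives were the filter, pseudocount, normalization, variance trend, fold threshold, a replicate block, fits of 2 phases and leaving out each library.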

Additional observations from a re-analysis of the deposited data

Results flagged for a closer look

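Within each phase, a library was looked at again where its gap to the nearest other, divided by the range of the 4, was over Dixon's 95% critical value. Of 156 groups of 4 values, 7 had such a library, against 7.8 that chance gives at 1 in 20. ADORA2A was higher in P7 replicate 4 (ratio 0.89; 0.24 against 0.06 to 0.08). ADORA3 was higher in the same library (ratio 1.0; 0.07 against 0.00). ADORA2B was lower in P0 replicate 2 (ratio 0.87; 6.64 against 6.77 to 6.79) and higher in P7 replicate 1 (ratio 0.90; 6.50 against 6.40 to 6.41). Among the pathway genes, AMPD3 was lower in P3 replicate 4 (ratio 0.92), P2RY2 lower in P7 replicate 1 (ratio 0.93) and DUSP1 higher in P15 replicate 3 (ratio 0.83).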

How the results depend on the processing

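Of 856 alternative values of the fold changes of the 8 tested genes, 846 kept their direction and their side of an adjusted p of 0.05, 6 lost the call, 3 gained it and 1 turned sign, ADK between P15 and P0 under quantile normalization (0.01). All 1544 values of the named pathway genes kept both, but not always a 2-fold change (ENTPD2 between P15 and P0, 0.82 with a pseudocount of 5). In both tallies, several alternatives can alter only the p and not the fold change itself, so they could not turn its sign. These are the replicate block, the variance trend, the filter, fits of 2 phases and leaving out a library of another phase. With no fold threshold, 6, 6 and 8 of the 8 genes counted as changed at P3, at P7 against P3 and at P15 against P7, and 60, 47, 70 and 76 of the pathway genes at these steps and between P15 and P0. Of all tested genes, 58.2% passed without it at P7 against P3. The shares for the other comparisons are not given here, so these counts are not read as particular to the genes. With over 1 CPM required in all 16 libraries, which leaves ADORA1 and DPP4 out, 1 gene was left at P3 and 2 at P15 against P7, and 19 pathway genes between P15 and P0. A pseudocount of 0.1 gave 1 gene at P7 against P3 (DPP4) and 10 pathway genes at P3, and a pseudocount of 5 gave 1 pathway gene at P7 against P3. ENPP1 between P15 and P0 was 0.92 with a pseudocount of 5. Leaving out 1 library gave 3 to 4 genes at P15 against P7 and the same counts of the 8 genes elsewhere, and gave ADORA2A a difference of 0.42 to 0.52, where the exact permutation p cannot go below 0.057. ENTPD1 passed at P3 without P0 replicate 2 (-0.27) and at P7 against P3 without P7 replicate 3 (0.30). Lengths from all annotated exons gave NT5E 64.4, ADK 21.0 and ADA 2.76 CPM per kilobase in P15, an alternative added after seeing the data, as were those for the order of the phases (16 to 18 of 24 pairs told apart without 1 library).

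Replicate numbers did not pair the libraries: same-numbered libraries correlated by -0.15 to 0.22 in their deviations, with 1 of 24 pairs over 0.1. Every phase holds the same set of replicate numbers, so a replicate block cannot move the fold changes and alters only their p. With it, 2 genes changed at P3 and 0 at P7 against P3. At P15 against P7 it was 4, and between P15 and P0 it was 5, as without it. The pathway genes in the same order came to 6, 5, 35 and 29, also as without it. The NT5E difference of 1.12 between the first and last step is the same by design. Depth limits ADORA2A and ADORA3, at under 1 CPM.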
